A study of Mus musculus with 8 samples.

Results

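Mature oligodendrocytes are the cells that wrap axons of the brain in myelin, and 3683 of the 77185 nuclei kept here (4.77%) belonged to them. The nuclei came from the cortex of mice at postnatal day 25, with the medial cortex removed, and were profiled by droplet single-nucleus RNA sequencing in 8 libraries of 1 animal each. Nuclei under 500 detected genes, or with over 2% of their UMIs from mitochondrial genes, were left out, a UMI (unique molecular identifier) being the tag that marks 1 captured RNA molecule. Members were then selected on their own counts. They held at least 5 UMIs of Mog, Mag, St18, Mobp and Prr5l together, at most 1 of Pdgfra and Cspg4, at most 2 of Enpp6 and Gpr17, at most 1 of Slc17a7, Gad1 and Gad2, and at most 3 of Slc1a3, Inpp5d and Flt1. All animals were C57BL/6J, either wild type (WT) or heterozygous for Chd8 (Chd8 het), with 2 males and 2 females of each genotype. No source used here describes the Chd8 allele. The labels speak of sex- and litter-matched pairs but name no partner for a library. Replicate 1 of each group was single-indexed and replicate 2 dual-indexed, so the replicate number and the index type cannot be told apart.

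Oligodendrocytes arise from oligodendrocyte precursor cells (OPC), which carry Pdgfra and Cspg4, through a short committed stage marked by Enpp6, Gpr17, Bcas1 and Tcf7l2. On maturing they switch on the proteins of compact myelin, such as Mbp, and of the myelin surface facing the axon, such as Mag, together with large-scale synthesis of cholesterol and galactolipids. The transcription factors Olig2, Sox10 and Myrf drive this program. CHD8 and its relative CHD7 are chromatin remodellers, and both have been tied to oligodendrocyte development; heterozygous loss of CHD8 is a known cause of autism in humans.

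The files held 69503598 to 98132783 UMIs per library, and the members held 388 to 573 nuclei and 1547642 to 1986207 UMIs per library. A pair of libraries shared 27 to 63 cell barcodes, at most 0.474% of the smaller library. No pair of replicates agreed within counting noise (chi-square per degree of freedom 4.76 to 8.72 over genes). The sample is the library, of 1 animal each, and p-values measure the spread between these libraries. The 3 comparison sets were cut from the same nuclei by similar rules: 745 committed precursors, 1465 OPC and 4948 excitatory neurons. OPC and excitatory neurons could hold at most 1 UMI of Mog, Mag, St18, Mobp and Prr5l together. The order of these genes between members and those sets was therefore fixed by the rules. Levels are given in CPM, a gene's UMIs over the summed UMIs of a set in a library, scaled to a common total; they are not corrected for gene length, so levels of different genes are not compared.

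Few nuclei lay near the marker threshold, which is given as a description because the rule used the same UMIs. Among nuclei that met all the other rules, 240 held 3 marker UMIs, 87 held 4 and were just outside, 41 held 5 and were just inside, and 24 held 7. The count then climbed again, and 3187 held 16 or more. The 87 nuclei just outside carried an Mbp UMI in 16.7% to 93.3% of nuclei per library and an Aspa UMI in 0% to 11.1%. The 41 just inside did so in 50% to 100% and in 0% to 29.4%, with only 1 to 17 nuclei per library. The median member held 25 to 38 marker UMIs, the lowest value being that of WT female 1.

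**Figure D1:**
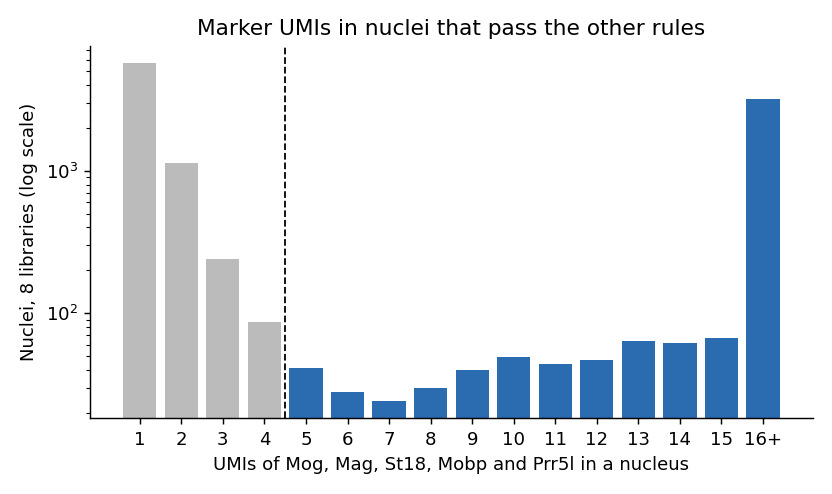
Nuclei of the 8 libraries together (vertical, log scale) by the number of UMIs of the 5 marker genes (horizontal), for nuclei with at least 1 that met every other rule. Grey bars lie below the threshold and blue bars are members; the dashed line is the threshold, which sits near the low point at 7 UMIs, and 3187 nuclei hold 16 or more.

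The label held against genes that the rule did not use, given here as a description because the same nuclei were selected on related genes. Aspa encodes aspartoacylase, which frees acetate from N-acetylaspartate. Its level was 556 CPM at the median of the 8 libraries (460 to 666), against 98.4 in committed precursors, 6.35 in OPC and 1.24 in excitatory neurons. When every nucleus was thinned to 1000 UMIs, 42.2% of members held an Aspa UMI (35.0% to 47.3% per library) against 0.0705% of excitatory neurons; without thinning the shares were 74.4% and 1.99%. The median depth of the unthinned nuclei was 3189 UMIs in members and 12843 in excitatory neurons. Opalin, a myelin surface glycoprotein, was found in 25.6% of thinned members and 0.137% of thinned excitatory neurons, and in 53.2% and 1.63% without thinning.

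Of the myelin genes given here, Mbp, Mog, Mal, Ermn and Gpm6b had higher medians in members than in committed precursors, and Cd9 had a lower one. Mbp, myelin basic protein, which seals the cytoplasmic faces of myelin, had a median of 5583 CPM in members (4942 to 6271). It had 3246 CPM in committed precursors, 110 in OPC and 69.6 in excitatory neurons. Mog, a minor protein of the outermost myelin layer, was a gene of the rule with 1010 CPM in members and 184 in committed precursors. Mal, a proteolipid of myelin membrane traffic, had 517 and 69.4 CPM, and Ermn, a cytoskeletal protein of the myelin sheath, 216 and 32.9. Cd9, a tetraspanin, had 66.9 CPM in members and 182 in committed precursors. Gpm6b, a membrane proteolipid, had 897 CPM in members, 542 in committed precursors, 731 in OPC and 557 in excitatory neurons.

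The regulators of the lineage differed in where they peaked. Myrf, which switches on myelin genes, had 113 CPM in members, 116 in committed precursors and 8.65 in OPC. Sox10, a lineage-wide factor, had 181, 281 and 223 CPM in the same 3 sets. Nkx6-2, a homeobox factor of mature cells, had 55.0 CPM in members, above the 11.8 in committed precursors. Tcf7l2, a Wnt effector that is transient in the lineage, showed the reverse order, with 144 CPM in members and 1457 in committed precursors. Sox6, which holds precursors back, had 43.6, 1241 and 1667 CPM in members, committed precursors and OPC. Klk6, a protease used as a marker of one late oligodendrocyte state, was close to absent, with 28 UMIs in all members. Sox2 had 0 UMIs in all 4 sets; its gene (GRCm38 chr3:34650405-34652461) lies inside Sox2ot on the same strand.

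**Figure D2:**
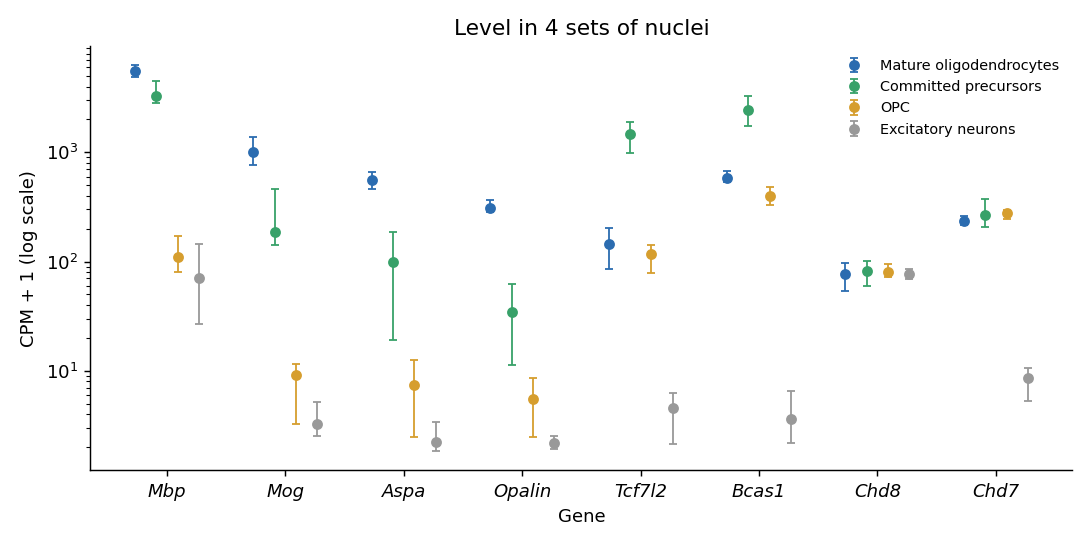
Level (CPM + 1, log scale) of 8 genes in the 4 sets of nuclei; points are medians over the 8 libraries and bars run from the lowest to the highest library. Mbp, Aspa and Opalin are highest in mature oligodendrocytes, and Tcf7l2 and Bcas1 in committed precursors. Mog, also highest in mature oligodendrocytes, is a gene of the selection rule and is shown as a description. Chd8 lies between 75.7 and 80.2 CPM at the median in every set.

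Of the remodellers, Chd8 had a median of 75.7 CPM in members, 80.2 in committed precursors, 78.5 in OPC and 76.1 in excitatory neurons, with overlapping ranges. Chd7 had 232, 266 and 277 CPM in the 3 sets of the lineage and 7.60 in excitatory neurons. At equal depth 20.7% of members and 0.719% of excitatory neurons held a Chd7 UMI (51.4% and 8.49% without thinning).

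The stretch upstream of the genes that set the members apart was read from RefSeq promoters (GRCm38.p6) to show what these genes carry next to their start. The 50 genes with the largest ratio of member level to the higher of the OPC and excitatory levels, among genes with at least 50 CPM in members, were taken; 36 of them had 49 promoters in the table. The motif bound by MYRF was searched as CTGGCAC or CTGGTAC on both strands in the 250 bases before each start. It was present in 8 of the 49 promoters (16.3%) and in 1947 of all 32851 promoters (5.93%). The 50 genes include the 5 marker genes of the rule, and without these 5 of 41 promoters (12.2%) held it. For scale, the SOX motif ACAATG or ACAAAG was in 36.7% of the 49 and 25.2% of all promoters, and the E-box CAGCTG or CATCTG in 36.7% and 25.5%; motifs were counted separately and their matches may overlap. The 8 promoters belong to 7 genes and hold 8 distinct sites, since 2 overlapping Mag promoters share 1 site and the Nipal4 promoter holds 2. All 8 sites are printed, in capitals with 10 bases on each side, 5′ to 3′ along the gene:
D7Ertd443e: ctgcaaacttGTGCCAGcgcccacagg
Frmd4b: cacagcctccGTGCCAGtcgcagccgt
Hapln2: ccggtggtttGTGCCAGcctgtcctgc
Mag: caggcggcccCTGGCACccagggggca
Mog: gaaatgcccaGTACCAGgcagccactg
Nipal4 (175 bases before the start): gactcggtggCTGGCACccagctgcgg
Nipal4 (200 bases before the start): tctcttgcccCTGGCACgggcggatga
Sec14l5: tgtgggggtgGTGCCAGgccagttcag

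The coordinates are those of the printed stretches, flanks included. Mog's match begins 83 bases before its start (chr17:37023465-37023491, minus strand). Mag's shared match begins 68 bases before a start and 9 bases before a neighbouring start (chr7:30914915-30914941, minus strand). The matches of Hapln2 (chr3:88027639-88027665, minus strand) and Sec14l5 (chr16:5146916-5146942, plus strand) begin 144 and 183 bases before. Those of Frmd4b (chr6:97487931-97487957, minus strand) and D7Ertd443e (chr7:134377051-134377077, minus strand) begin 127 and 236 bases before. Nipal4 has a pair of them (chr11:46166518-46166544, minus strand, and chr11:46166543-46166569, minus strand). Mag and Mog had medians of 1075 and 1010 CPM in members, Sec14l5 616, D7Ertd443e 603, Frmd4b 577, Hapln2, a link protein of the nodal matrix, 106, and Nipal4 57.1. The genes were chosen by their level, so the shares are a description, and a match is not a binding site.

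A small share of members carried more RNA of genes typical of the committed stage. In each of 3656 members with at least 1000 UMIs, thinned to that number, UMIs were summed over 16 early-stage genes and 18 late-stage genes. The 2 groups were kept from longer lists by their level in committed precursors against members, so the split itself is no result. Members with 0 early UMIs numbered 954, and members with 5 or more numbered 284, between 5.46% and 10.4% of a library. Late-gene UMIs per nucleus had a median over libraries of 3.56 in nuclei with 0 early UMIs, 3.75 with 1, 3.65 with 2, 3.26 with 3 or 4 and 1.23 with 5 or more. The last class was the lowest in 8 of 8 libraries (difference between the last and the 0 class −2.26 at the median, −2.89 to −1.78). Nuclei of the last class were also deeper before thinning, with a median of 4061 UMIs against 3092. Their UMIs of 10 excitatory-neuron genes per 1000 were 3.02 against 4.38, and of 8 astrocyte genes 0.608 against 0.675. UMIs of 7 interneuron genes were 0.213 against 0.232, while Erbb4, listed with them but also a receptor of oligodendrocytes, had 5.01 against 3.06. The part of depth and of other cells' RNA in the pattern was not tested, and a course within the members and a few committed-like nuclei that passed the rule cannot be told apart here.

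**Figure D3:**
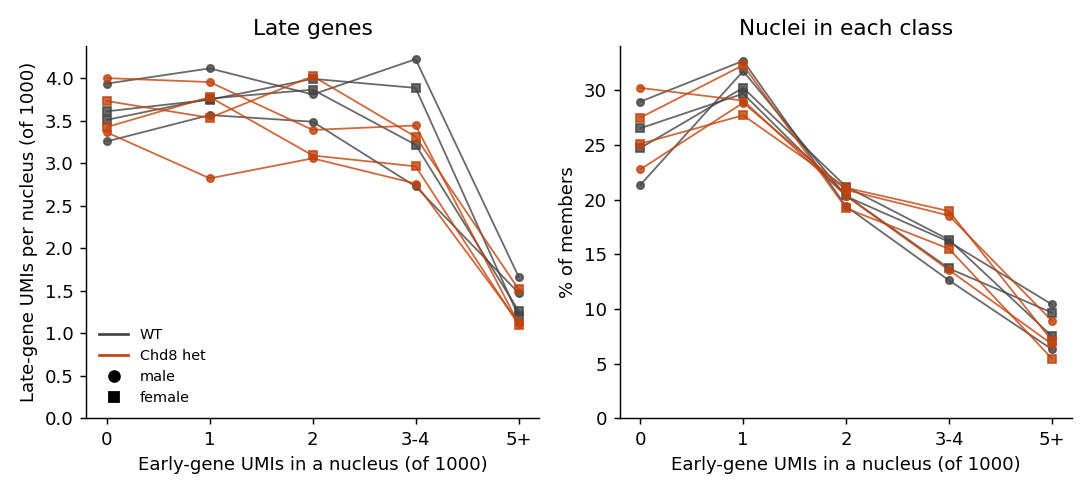
Left, late-gene UMIs per nucleus, and right, percent of members, by the number of early-gene UMIs in a nucleus thinned to 1000 UMIs; each line is 1 of the 8 libraries, coloured by genotype, with circles for males and squares for females. Late-gene UMIs stay between 2.73 and 4.22 up to the class with 3 or 4 early UMIs and lie between 1.10 and 1.67 in the class with 5 or more.

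Other genes differed between the same classes, and those given were chosen after their values were seen. Of 1637 genes outside the summed genes and the rule, with a mean of at least 0.1 UMI per thinned nucleus, 154 were higher and 226 lower in the last class than in the 0 class in all 8 libraries. Frmd4a, which encodes a scaffold of cell polarity, had a median of 5.71 UMIs per nucleus in the last class (2.64 to 6.47) and 0.265 in the 0 class (0.159 to 0.439). Tnr, an extracellular matrix protein made by young oligodendrocytes, had 1.66 and 0.102. Nfasc, which anchors the myelin loops beside the node, had 4.16 (3.56 to 5.03) and 0.745 (0.503 to 0.973). Sema5a, a guidance protein, had 1.00 and 0.101. In none of these genes did the 2 classes overlap over the 8 libraries.

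Lower in the last class in 8 of 8 libraries were Aspa, with 0.155 against 0.654 UMIs, Mast4, a kinase, with 0.563 against 2.27, and Arid5b, a transcription regulator, with 0.0257 against 0.264. So were the late-list genes Trf, the iron carrier transferrin, with 0.203 against 0.729, and Car2, a carbonic anhydrase of oligodendrocytes, with 0.0829 against 0.289. The genes of the rule went different ways: Prr5l was lower in 8 of 8 libraries (0.336 against 1.45), Mog in 7 of 8 (0.650 against 1.05), Mobp in 4 of 8, and Mag and St18 were higher in 8 of 8.

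Variation was then ranked without a list. At equal depth the variance-to-mean ratio over members exceeded 2 in 51 of 6576 genes, with a median of 1.01 over all of them. Malat1, a nuclear noncoding RNA, came at the head with 26.4 (18.7 to 36.3). Frmd4a had 12.2, the early-list gene 9630013A20Rik 8.80, Tnr 5.65, Fam155a 4.37 and Lsamp, a cell adhesion protein, 4.37. In each of these 6 genes the lowest of the 8 libraries was at 2.56 or more.

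Chd8 itself was the check of the genotype labels, and it did not separate the groups in the members. WT males had 68.3 and 88.3 CPM and WT females 93.3 and 76.7, and Chd8 het males had 51.9 and 95.6 CPM and Chd8 het females 77.6 and 75.3. The levels of single genes here and below are scaled by TMM, a between-library normalisation, and sums over a list are plain CPM. The groups overlapped, and the highest and the lowest library were both Chd8 het males. The log2 difference was −0.12 (SE 0.18; Chd8 het minus WT; edgeR, adjusted p = 1.00), with 99 to 179 Chd8 UMIs per library. Whether the counted part of the gene lies outside the altered part of the allele is not stated in the sources used here.

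The share of members did not differ by genotype beyond the spread of the libraries. In WT it was 4.76% and 4.98% in males and 5.40% and 4.35% in females, and in Chd8 het it was 4.84% and 4.33% in males and 4.53% and 5.04% in females. The 95% exact binomial intervals, which cover counting error only, ran from 3.94% to 5.85% over all libraries. The highest library was WT female 1 and the groups overlapped fully. The mean was 4.87% ± 0.436 (SD, n = 4) in WT and 4.69% ± 0.316 in Chd8 het (difference −0.186 points; exact permutation test, two-sided p = 0.571, adjusted p = 0.571 over 3 measures; smallest p possible 0.0286). The difference was −0.0105 points without WT female 1 and −0.0903 with at least 10 marker UMIs. It was −0.0321 in nuclei thinned to 1000 UMIs, where shares ran from 6.34% to 7.26%. There the marker threshold was lowered to 2 UMIs while the caps on other genes stayed as they were. That set held 5071 nuclei against 3683 members, so it is not the same set at equal depth. For the members, the difference was −0.393 points within single-indexed libraries and 0.0205 within dual-indexed libraries.

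UMIs per member overlapped between genotypes and did not overlap between index types. The median was 3119, 3193, 2986 and 3669 in WT (male 1, male 2, female 1, female 2) and 3125, 3373, 3185 and 3764 in Chd8 het. The Chd8 het library was higher in 4 of 4 pairs of equal sex and replicate number, by 6 to 199 UMIs, but the groups overlapped (mean 3242 ± 297 against 3362 ± 288, SD, n = 4; exact permutation test, p = 0.543, adjusted p = 0.571). Detected genes had means of 1571 ± 132 and 1642 ± 108 (SD, n = 4; exact permutation test, p = 0.457, adjusted p = 0.571), also higher in 4 of 4 pairs. Dual-indexed libraries had 3193 to 3764 UMIs and single-indexed ones 2986 to 3185, without overlap (exact permutation test, p = 0.0286, the smallest possible, adjusted p = 0.0429).

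**Figure D4:**
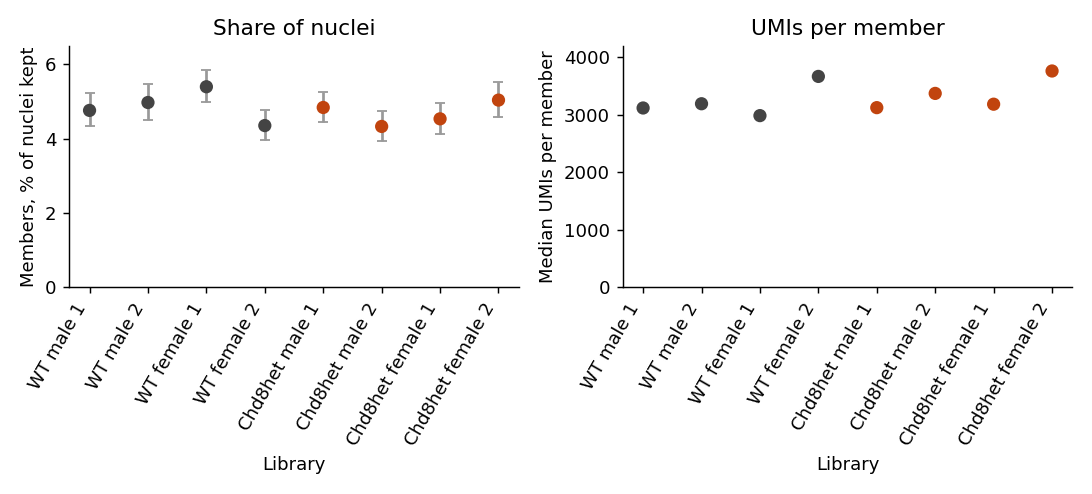
Left, members as a percent of nuclei kept with 95% exact binomial intervals, and right, median UMIs per member, for the 8 libraries (WT grey, Chd8 het orange). Shares run from 4.33% to 5.40% with the genotypes mixed, and in every group the dual-indexed replicate 2 has more UMIs per member than the single-indexed replicate 1.

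No gene passed the test between genotypes in the members. Summed counts per library were fitted with edgeR's quasi-likelihood test with terms for sex and genotype, and 0 of 11265 genes had a Benjamini-Hochberg adjusted p under 0.05 (0%). At an unadjusted p under 0.05 stood 280 genes, 2.49% of those tested. DESeq2 called 0 genes as well, with 97 at an unadjusted p under 0.05. With an index term added, edgeR called 0 genes, with 550 (4.88%) at an unadjusted p under 0.05. The fit with the pair of sex and replicate number as a block had 622 genes at an unadjusted p under 0.05 and called 1 of 11265 (0.00888%), Bnc2. The Chd8 het library lay above the WT library in 4 of 4 pairs for 757 genes (6.72%) and below it for 769 (6.83%). All 4 Chd8 het libraries lay above all 4 WT libraries for 119 genes (1.06%) and below them for 107 (0.95%).

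Bnc2, a zinc finger protein (chr4:84275095-84675275), was the gene called lower in Chd8 het in the block fit. It had 62, 1, 14 and 39 UMIs in WT (male 1, male 2, female 1, female 2) and 11, 0, 4 and 0 in Chd8 het. The log2 difference was −3.05 (SE 0.44; edgeR with the block, adjusted p = 0.0209; SE 0.94 and adjusted p = 1.00 without it). These UMIs came from 25 of the 3683 members, and 1 nucleus of WT male 1 held 48 of its 62. DESeq2 with the block called 0 genes, with 106 at an unadjusted p under 0.05. The call thus rested on few nuclei.

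No structural gene of myelin passed the test between genotypes. Leaving out Mog, Mag and Mobp, whose UMIs helped to choose the members, 15 listed genes were tested and 0 were called. Their median log2 difference was 0.011 beside 0.0011 over all genes tested, with a range of −0.16 to 0.20; with the 3 genes of the rule the median was 0.02. Mbp had 6452, 5615, 5115 and 5286 CPM in WT and 5989, 5556, 6217 and 5333 in Chd8 het (log2 0.04, SE 0.11). The groups overlapped. Mal was the 1 gene of the 15 above its WT partner in 4 of 4 pairs, and 0 lay below in 4 of 4. Its log2 difference was 0.15 (SE 0.21, in the fit without an index term). Of all genes 6.72% lay above and 6.83% below in 4 of 4 pairs.

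No lipid gene passed the test. Of 20 cholesterol synthesis genes tested, 0 were called, 18 had a log2 difference above 0 and 2 below, with a median of 0.19. In all, 3 lay above WT in 4 of 4 pairs and 1 below, that is 15% and 5% beside the 6.72% and 6.83% of all genes. Among those above were Msmo1, a sterol oxidase (log2 0.24, SE 0.14), and Srebf2, the transcription factor of the pathway (0.18, SE 0.13); Mvd lay below (−0.22, SE 0.26; Mvd and Msmo1 are named after their values were seen). The list's median was 0.20, 0.21 and 0.36 in male pair 1, male pair 2 and female pair 1, and −0.01 in female pair 2. Of 21 fatty acid and galactolipid genes, 0 were called and the median was 0.05. That median was −0.054 in thinned members, where fewer genes were tested (6279 against 11265 in all), and −0.028 without WT male 2. Fads1, a fatty acid desaturase, had 14.8, 12.3, 9.90 and 11.4 CPM in WT and 22.5, 15.6, 14.9 and 19.7 in Chd8 het, without overlap (log2 0.60, SE 0.22). Of all genes 1.06% lay above WT without overlap. Ugt8a, which makes the myelin lipid galactosylceramide, had −0.05 (SE 0.11).

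No gene of contact with the axon passed the test. Of 23 tested, 0 were called, 17 were below 0 and 6 above, with a median of −0.05. That median was −0.0040 without WT male 2, −0.10 without WT male 1 and −0.10 in thinned members, where fewer genes were tested in all. Of the 23, 6 (26.1%) lay below WT in 4 of 4 pairs and 0 above, beside 6.83% and 6.72% of all genes. The 6 were Ctnna3, an alpha-catenin (−0.25, SE 0.11), Cadm1, an adhesion protein, Sema4d, Plxnb3, Dscam and Cdh20. Ctnna3 had 1232, 1150, 1246 and 1369 CPM in WT and 1104, 951, 956 and 1186 in Chd8 het, where the highest Chd8 het library overlapped WT. Nfasc had −0.06 (SE 0.12), with 2 pairs each way.

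Of 19 tested lineage transcription factors outside the rule, 0 were called and the median was 0.0063. Zeb2 lay below WT in 4 of 4 pairs (−0.07, SE 0.12). With St18, whose UMIs helped to choose the members, the median was −0.03. Of 24 tested growth signal receptors and partners (27 listed) 0 were called, with a median of −0.05. Tsc2, a brake on mTOR, had 16.8, 19.5, 16.7 and 15.6 CPM in WT and 11.0, 14.4, 14.3 and 13.1 in Chd8 het, without overlap (log2 −0.37, SE 0.21). The Tsc2 gene overlaps Pkd1 on the opposite strand, and the use of strand in counting is not stated. Lpar1 also lay below in 4 of 4 pairs, and S1pr5 lay above. Erbb4, a neuregulin receptor, had 0.02 (SE 0.13). Of 20 transport and gap junction genes 0 were called, with a median of −0.02. Slc2a1, the glucose transporter GLUT1, Slc44a1, a choline transporter, and Car14 lay below in 4 of 4 pairs. Genes below in 4 of 4 pairs made up 12.5% of the growth signal list and 15% of the transport list, beside 6.83% of all genes. Those above made up 4.17% and 0%, beside 6.72%. Of all genes 0.95% lay below WT without overlap, as Tsc2 did.

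Early and late genes of the lineage did not pass the test either. Of 17 tested early genes (20 listed) 0 were called, 14 lay below 0, and the median was −0.05. That list holds genes that were not higher in committed precursors than in members here. Among the 13 tested that were higher, 12 lay below 0, with a median of −0.16, and 0 lay below WT in 4 of 4 pairs. The lowest was 9630013A20Rik, a noncoding RNA of the committed stage, at −0.42 (SE 0.18; 3 of 4 pairs). It overlaps Pcdh17 on the opposite strand, and their reads cannot be told apart without known strand use. Of 19 tested genes of the late list (21 listed) 0 were called, with a median of −0.02. The late list also holds genes that were not higher in members than in committed precursors here, such as Pde7b (65.2 against 98.6 CPM). Members with 5 or more early UMIs made up 6.31%, 10.4%, 9.67% and 7.51% of WT libraries (male 1, male 2, female 1, female 2) and 6.78%, 8.92%, 5.46% and 7.11% of Chd8 het ones. The groups overlapped (8.47% ± 1.90 against 7.07% ± 1.43, SD, n = 4; exact permutation test, p = 0.286). Markers of committed cells summed to 1124 to 1490 CPM in WT members and 1111 to 1251 in Chd8 het members, and OPC markers to 303 to 765 and 285 to 641 CPM. The committed sum is no separate measure. It holds the early genes Bcas1 and 9630013A20Rik (medians of 584 and 530 CPM in members) and Enpp6 and Gpr17, which the rule capped. The part of other cells' RNA in these differences was not tested.

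The 34 chromatin genes, with Chd1 to Chd9 among them, gave 0 calls and a median of −0.02. Chd7 had 240, 216, 221 and 234 CPM in WT and 232, 257, 232 and 264 in Chd8 het (log2 0.11, SE 0.11). Chd3, of the NuRD complex, had 0.24 (SE 0.16; 3 of 4 pairs), and Kmt2a, a histone methyltransferase, was the 1 gene of the list above WT in 4 of 4 pairs. Of 22 immediate early and stress genes only 10 had enough counts to be tested; 0 were called, 6 were above 0 and 4 below, and the median was 0.13. Jun was the 1 gene of that list below WT in 4 of 4 pairs (−0.38, SE 0.20), 10% of those tested, and none lay above in 4 of 4. Of all genes 6.83% lay below and 6.72% above.

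No direction is read from the medians of the myelin, fatty acid and galactolipid, lineage factor, transport, growth signal, early, late and chromatin lists. Each changed sign when at least 1 of the 8 libraries was left out.

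Ribosomal, respiratory and mitochondrial lists had the highest medians of the lists described, and none of their genes passed the test. Of 79 ribosomal protein genes tested 0 were called, 76 were above 0 and the median was 0.30. The median was 0.41, 0.57 and 0.33 in male pair 1, male pair 2 and female pair 1, and −0.21 in female pair 2. The summed level was 2785, 1274, 1953 and 1973 CPM in WT and 3882, 2003, 2485 and 1743 in Chd8 het, so the lowest library was WT male 2 and the highest Chd8 het male 1. Without WT male 2 the median was 0.07, and without Chd8 het male 1 it was 0.03. The 76 tested nuclear genes of oxidative phosphorylation had a median of 0.25 (67 above 0; 0.10 and 0.08 without the same 2 libraries), and the 8 tested mitochondrial transcripts 0.39 (8 above 0; 0.13 and 0.20). In 4 of 4 pairs 14 ribosomal genes (17.7%) and 13 oxidative phosphorylation genes (17.1%) lay above WT, beside 6.72% of all genes. The mitochondrial sum ran from 1322 CPM in WT male 2 to 4459 in Chd8 het male 1. The filter on nuclei used mitochondrial UMIs (at most 2%), so the mitochondrial values are a description. Of genes named in earlier work on these data, Rpl13 had 0.41 (SE 0.33), Rpl23 0.65 (SE 0.25) and Rps2 0.59 (SE 0.30), each uncalled. Genes of other cells summed, in members, to 3916 to 4803 CPM in WT and 4418 to 4820 in Chd8 het for excitatory neurons, 504 to 681 and 510 to 704 for astrocytes, and 188 to 237 and 178 to 235 for microglia. Their part was not tested.

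Single genes with the smallest p among those that went 1 way in 4 of 4 pairs are given as a description of the upper edge of an uncalled comparison. Hjurp, a chaperone of centromere histone (chr1:88262471-88277633), had 21.3, 25.3, 24.0 and 18.7 CPM in WT and 50.3, 36.7, 38.8 and 36.0 in Chd8 het. The groups did not overlap (log2 0.86, SE 0.18; edgeR adjusted p = 1.00, with the block 0.130), and its 442 UMIs came from 394 nuclei. Robo1, a receptor for Slit guidance proteins, had 164, 173, 209 and 219 CPM in WT and 259, 282, 238 and 275 in Chd8 het, also without overlap (0.47, SE 0.12). Single nuclei held 43 of 254 Robo1 UMIs in WT male 1 and 41 of 422 in WT female 2. In Chd8 het they held 43 of 495 in male 1 and 36 of 398 in female 1. Zfp804b had 56.7, 74.0, 55.2 and 68.4 CPM in WT and 89.6, 123, 157 and 90.1 in Chd8 het (0.85, SE 0.19), but 1 nucleus of Chd8 het female 1 held 138 of that library's 263 UMIs. Npnt, BC006965, Il1rapl2 and Epdr1 were also in the upper group, with log2 differences of 0.61 to 1.37. BC006965 had only 81 UMIs in all, 3 to 17 per library, and 1 nucleus of Chd8 het female 2 held 9 of its 16. For Il1rapl2 single nuclei held 41 of 198 UMIs in Chd8 het male 1, 38 of 195 in Chd8 het female 1 and 25 of 143 in WT female 2.

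In the other direction, 5330434G04Rik, a long noncoding RNA of the X chromosome (chrX:105348282-105391776), had 161, 194, 172 and 173 CPM in WT and 136, 142, 120 and 136 in Chd8 het. All 4 Chd8 het libraries were lower than all 4 WT libraries (log2 −0.39, SE 0.11; edgeR adjusted p = 1.00, with the block 0.445). It was named by earlier work on these data, so its rank here is no independent support. Klf8, a Krüppel-like factor, had 32.5 to 49.8 CPM in WT and 19.7 to 28.9 in Chd8 het (−0.69, SE 0.18). Cyp3a13, a cytochrome P450, had 12.9 to 19.3 CPM in WT and 5.24 to 9.28 in Chd8 het (−1.01, SE 0.25). Foxp2, a transcription factor best known from neurons, had 89.0, 57.1, 61.0 and 57.0 CPM in WT and 59.2, 31.3, 33.4 and 32.8 in Chd8 het (−0.75, SE 0.20). A single WT male 1 nucleus held 64 of that library's 138 Foxp2 UMIs, and the log2 difference was −0.28 without the 5% of members with most UMIs and 0.13 in thinned members. Prune2, Gm27008, Tcp11l1, 5430431A17Rik and Gm47283 completed the lower group, with −0.84 to −0.44; Gm27008 lies antisense to other genes, and the use of strand in counting is not stated.

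Between index types many genes passed the test. With sex and genotype in the fit, 505 of 11265 genes (4.48%) were called higher and 535 (4.75%) lower in dual-indexed libraries (edgeR, adjusted p under 0.05). Of the 15 myelin genes outside the rule 4 (26.7%) were called, all lower in dual-indexed libraries: Mal, Cd9, Cldn11 and Cryab. Mal had 576 to 688 CPM in the single-indexed libraries and 349 to 477 in the dual-indexed ones, without overlap (log2 −0.67, SE 0.09, edgeR adjusted p = 0.000164). Cd9 had 75.8 to 101 and 44.8 to 59.5 CPM, also without overlap (−0.74, SE 0.13). As a description, since its UMIs helped to choose the members, Mog had 1270, 1226, 1365 and 1347 CPM in the single-indexed libraries (WT male, WT female, Chd8 het male, Chd8 het female) and 788, 812, 764 and 854 in the dual-indexed ones. Mbp, at −0.12 (SE 0.08), was not called.

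**Figure D5:**
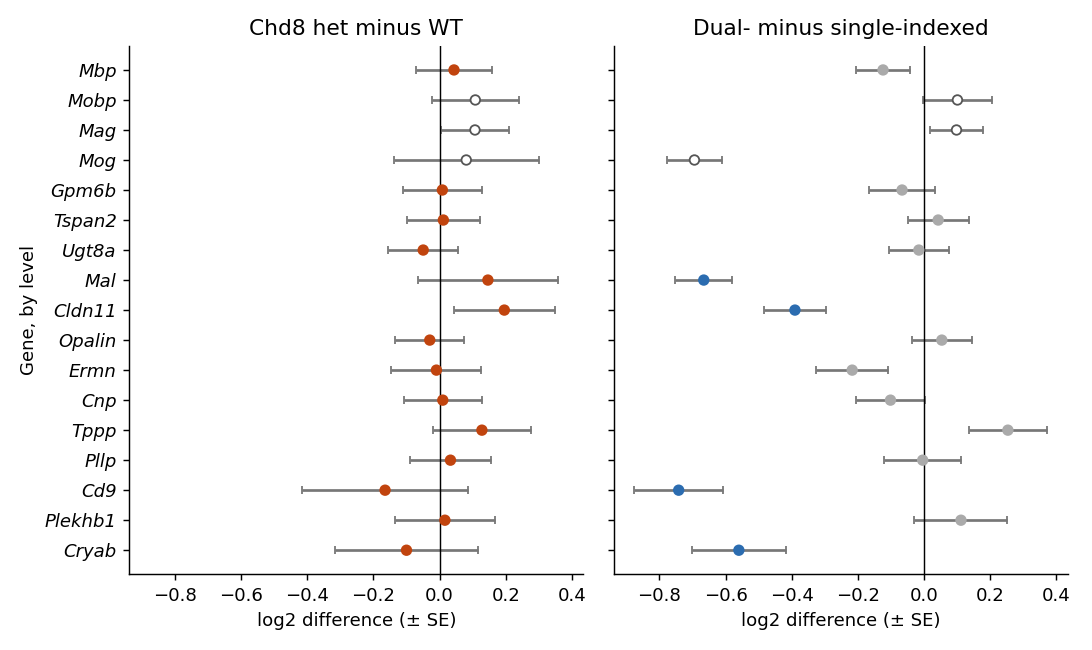
Log2 differences (horizontal, with SE) of 17 of the 18 myelin genes, ordered by level, for Chd8 het minus WT (left) and dual- minus single-indexed (right) over the 8 libraries. No point on the left passed the test; on the right blue points passed it, with Cd9 at −0.74 and Mal at −0.67. Open points (Mog, Mag, Mobp) are genes of the selection rule, shown as a description.

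Of 19 genes of the late list tested 5 were called, 4 lower in dual-indexed libraries and 1 higher, Pde7b, a phosphodiesterase. Pde7b had 39.8 to 68.3 CPM in single- and 63.7 to 98.0 in dual-indexed libraries (log2 0.74, SE 0.14). It was not a late gene here, with medians of 65.2 CPM in members, 98.6 in committed precursors and 570 in OPC. The genes that follow were named after their values were seen. Hapln2 had 135 to 163 CPM in single-indexed and 55.9 to 81.4 in dual-indexed libraries (log2 −1.11, SE 0.13). Ptgds, prostaglandin D synthase of mature oligodendrocytes and meninges, had 245 to 489 and 83.6 to 159 CPM (−1.59, SE 0.21). Tubb4a, the tubulin of myelinating cells, had 656 to 798 and 337 to 375 CPM (−1.02, SE 0.09). The lineage factors Sox8 (−1.29, SE 0.16), Olig1 (−1.02, SE 0.15) and Sox10 (−0.74, SE 0.11) were lower and Myrf (0.37, SE 0.11) was higher. Of the 19 lineage factors outside the rule 8 were called (3 higher, 5 lower), 42.1% beside 9.23% of all genes. Of 79 ribosomal genes 35 were called, all lower. Members per committed precursor nucleus also differed, at 5.42 to 6.71 in single- and 3.53 to 4.44 in dual-indexed libraries, while kept nuclei had medians of 5227 to 6340 and 6874 to 8390 UMIs. In members, 7 interneuron genes summed to 175 to 385 CPM in single- and 185 to 242 in dual-indexed libraries, leaving out Erbb4, which carried most of that list's sum. The 10 excitatory-neuron genes summed to 3916 to 4592 and 4417 to 4820 CPM. The part of depth and of other cells' RNA in these differences was not tested.

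Few genes passed the test between the sexes. In the fit of sex and genotype 8 of 11265 genes (0.071%) were called, against 17 with an index term and 12 in DESeq2. Higher in females were Xist, which silences an X chromosome, its antisense partner Tsix, Jpx and Cd180; higher in males were the Y-linked Uty, Kdm5d, Eif2s3y and Ddx3y. All 4 female libraries had 1164 to 1674 CPM of Xist and the male libraries 0 to 1.95, as the sex labels have it; without known strand use, Xist and Tsix reads cannot be told apart. Cd180, known from B cells, had 63.8, 49.3, 55.5 and 48.7 CPM in males and 107, 99.6, 89.6 and 116 in females, without overlap (log2 0.92, SE 0.14, edgeR adjusted p = 0.0320). Its gene (chr13:102693558-102739629) overlaps Mast4 on the opposite strand, and Mast4 differed by −0.01 (SE 0.16) between the sexes.

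The genotype difference was not shown to depend on sex or to be particular to the members. The interaction of sex and genotype called 0 of 11265 genes (0%) in edgeR, with 218 at an unadjusted p under 0.05, and 0 with an index term added (591). The difference between the genotype effects in members and in OPC called 0 of 10130 genes (0%) in edgeR, with 468 at an unadjusted p under 0.05, and 0 in DESeq2 (108). In OPC alone the ribosomal list had a median log2 difference of 0.19 and the cholesterol list 0.13 (10 genes tested), beside 0.30 and 0.19 in members.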

How the data were processed

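The deposited files hold raw UMI counts per gene and barcode, made by the authors. Per the submitters' processing notes, STAR 2.7.9a, STARsolo and Cell Ranger were used with mm10; the use of introns and of strand is not given in the sources used here. Of 32285 genes, 32235 matched GENCODE M21 (GRCm38) by identifier. Counts of members were summed per library, filtered with filterByExpr (minimum count 10) and tested with edgeR 4.0.16 (quasi-likelihood, TMM, Benjamini-Hochberg); DESeq2 1.42.0 was an alternative. Scripts ran in R 4.3.3 and Python 3.11.15, and the tests were tested on simulated data. No doublet caller was run: mixed nuclei were limited only by the rule's caps on other cell types' genes, and leaving out the 5% of members with most UMIs was an alternative. Others were stricter filters, other marker thresholds, thinning, the replicate block, an index term and leaving out each library.

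The members and gene lists were chosen with earlier results of these data known. Genes were named by rule: those called; the 8 per direction with the smallest p among those alike in 4 of 4 pairs; up to 4 by level and 2 by p per list; the rule genes; the 6 most variable; and those of earlier work. Libraries of equal sex and replicate number deviated together from the mean of their genotype (r 0.283 to 0.598 over 3329 genes in 4 of 4 pairs). Libraries of the same index type but other sex had r 0.0646 to 0.446, and those of the other index type had r −0.534 to −0.0695. Differences by sex and index type stay in these deviations, so they do not show a pairing. The block was treated as a pairing, but litter and index type cannot be told apart. The labels name 1 animal per library. Some genes that the naming rule picked are not reported here.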

Additional observations from a re-analysis of the deposited data

Results flagged for a closer look

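In all, 3 values stood apart from the other 3 libraries of their genotype by Dixon's ratio, among 56 groups of 4 examined; chance flags about 1 in 20 groups, or 2.8 here. Foxp2 was 89.0 CPM in WT male 1 beside 57.0 to 61.0 in the other WT libraries. Foxp2 was also 59.2 CPM in Chd8 het male 1 beside 31.3 to 33.4 in the other Chd8 het libraries. Gm47283, annotated on the Y chromosome but counted in both sexes, was 150.9 CPM in WT female 2 beside 124.5 to 125.1 in the others.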

How the results depend on the processing

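The genotype test called 0 genes in the fit of sex and genotype, 1 with the replicate block, 1 without a count filter (Gm6260, lower, 30 of its 63 UMIs in WT male 1) and 0 to 1 when each library was left out, the 1 being without WT male replicate 2. With the replicate block the share differed by −0.186 points (exact sign-flip over 4 pairs, p = 0.750; smallest possible 0.125), and the block changed no other call. Leaving out each library moved the share difference from −0.359 to −0.0105 points, the UMI difference from −14.1 to 262 and the gene difference from 27.7 to 131. Sex calls rose from 8 to 17 with an index term, and index calls fell from 1040 to 403 in DESeq2; the cause was not tested. In thinned members 6279 genes were tested, against 11265 in the main fit, so a list could hold fewer genes there. The list medians were then −0.10 for axon contact, −0.14 for late, −0.14 for early, −0.054 for fatty acid and galactolipid and −0.042 for chromatin genes. Without each library medians ran from −0.0083 to 0.086 for myelin, 0.11 (without Chd8 het female 1) to 0.25 for cholesterol, −0.028 to 0.11 for fatty acid and galactolipid, −0.072 to 0.035 for lineage factors, −0.10 to −0.0040 for axon contact, −0.074 to 0.082 for transport, −0.088 to 0.0024 for growth signal, −0.20 to 0.0012 for early, −0.16 to 0.11 for late, −0.050 to 0.034 for chromatin, 0.072 to 0.21 for immediate early, 0.026 to 0.47 for ribosomal, 0.080 to 0.39 for oxidative phosphorylation and 0.13 to 0.68 for mitochondrial genes. Foxp2 reversed in thinned members (0.13); the cause was not tested. Without the deepest 5% of members the late-gene drop was −2.41. Over all members the median drop ran from −2.27 to −2.24 when each library was left out. Both of these settings and the DESeq2 scaling of lists were alternatives chosen after seeing the data. Calls on genes of few UMIs, as Bnc2 and Gm6260, rest on 25 and 21 nuclei.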

Other observations

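Hbb-bs, the beta chain of haemoglobin, was counted at 197 CPM in members of Chd8 het male 1 and at 3.13 to 9.55 CPM in the other 7 libraries; it was named after its values were seen. Il33, an alarmin of some mature oligodendrocytes, was found in 2.02% of thinned members and 0.366% of thinned excitatory neurons (5.60% and 4.66% without thinning).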
